A study of Rattus norvegicus with 24 samples.

Results

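The comparison described here set the hearts of all rats that had received soluble zinc against the hearts of all rats that had not. Every one of the 24 arrays entered it: 16 arrays carried soluble zinc and 8 did not, in 6 exposure groups of 4 rats. All animals were adult male Wistar Kyoto rats given weekly intratracheal instillations under halothane anesthesia, and RNA of the left ventricle with the septum was hybridized to 1 oligonucleotide array per rat. The zinc-free pool held the groups Saline (the vehicle) and MSH (Mount St. Helens volcanic ash, a fine dust without water-soluble zinc or other metals). The soluble-zinc pool held PM-HD (a suspension of oil combustion particles, labelled with 14.5 µg/mg zinc and 3.0 µg/mg nickel), PM-LD (the same particles labelled with 7.25 µg/mg zinc and 1.5 µg/mg nickel), PM-L (the filtered saline leachate of the particles, with their soluble metals but no solids) and Zn (zinc sulfate in saline). Soluble zinc is thus what the 4 groups share, while solids were present in MSH, PM-HD and PM-LD only and soluble nickel was present in the 3 particle-derived groups only. By the study's design PM-LD was the PM-HD particle sample at a lower instilled dose, not particles of lower metal content. The sample description and the instillation protocol give different zinc concentrations for the zinc sulfate solution, so no dose is compared here. The arrays of Saline, MSH, PM-HD and Zn came from the exposure of 8 weekly instillations. How many the PM-LD and PM-L rats received is not stated in the sources used here, which also give no time of day for the necropsies.

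Membership was decided by the group label alone, and all 15866 probe sets other than the 57 array controls were tested. A gene is represented below by its brightest probe set with a single gene symbol, which gave 10411 genes. Each contrast gave every group equal weight: the mean of the 4 zinc group means minus the mean of the 2 zinc-free group means, in log2 units of array signal plus 16. The study's own thresholds, an unadjusted p under 0.05 together with fold limits that on the log2 scale are a change above 0.322 or below -0.415, define what is called higher or lower in the following, and limma p-values adjusted by the method of Benjamini and Hochberg over all probe sets stand beside the calls. The labels do not say whether rats of a group were exposed in separate batches, and the p-values measure the spread between these rats.

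As background, a molecular clock runs in cardiomyocytes as in most cells. BMAL1 and CLOCK drive their targets through E-boxes, the targets REV-ERB alpha and beta (Nr1d1, Nr1d2) repress Bmal1 through ROR elements, and the PAR bZIP factors DBP, TEF and HLF carry the rhythm to output genes through D-boxes. Zinc is sensed by the metal-regulatory factor MTF1, which switches on metallothioneins through metal response elements, while SLC30 transporters move zinc out of the cytosol and SLC39 transporters move it in. Levels of clock transcripts swing over the day in the heart.

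The sequences below are the parts of 5 promoters, taken from RefSeq on rat assembly GRCr8, that these textbook circuits rest on. Each is the 250 bases before the annotated start, on the gene's own strand, with the matches to a single motif in capitals. They are shown because Tef, Nr1d1 and Bmal1 were among the clock genes whose signals differed most between the pools, and because Mt1 and Mt2A are the measured metallothioneins with the clearest match clusters.
Bmal1, chr1:176766078-176766327, plus strand, with the REV-ERB/ROR element searched as AANT followed directly by AGGTCA: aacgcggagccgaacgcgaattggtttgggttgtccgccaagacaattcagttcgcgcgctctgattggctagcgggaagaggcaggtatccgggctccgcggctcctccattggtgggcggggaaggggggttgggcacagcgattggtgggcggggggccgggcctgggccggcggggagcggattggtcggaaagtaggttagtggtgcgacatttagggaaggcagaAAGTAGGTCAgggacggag
Nr1d1, chr10:84229455-84229704, minus strand, with the E-box CACGTG: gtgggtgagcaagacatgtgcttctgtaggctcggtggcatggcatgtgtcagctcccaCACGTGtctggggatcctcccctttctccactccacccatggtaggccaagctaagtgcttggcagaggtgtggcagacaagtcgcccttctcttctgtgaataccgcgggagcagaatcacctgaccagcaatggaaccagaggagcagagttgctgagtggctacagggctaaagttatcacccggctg
Tef, chr7:115206577-115206826, plus strand, with the E-box CACGTG: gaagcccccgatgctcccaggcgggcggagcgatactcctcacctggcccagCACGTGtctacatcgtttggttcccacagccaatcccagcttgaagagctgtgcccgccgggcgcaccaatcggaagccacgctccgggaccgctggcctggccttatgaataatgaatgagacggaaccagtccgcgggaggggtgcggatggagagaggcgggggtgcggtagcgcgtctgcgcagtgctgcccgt
Mt2A, chr19:10838709-10838958, minus strand, with the metal response element core TGCGCNC or TGCACNC: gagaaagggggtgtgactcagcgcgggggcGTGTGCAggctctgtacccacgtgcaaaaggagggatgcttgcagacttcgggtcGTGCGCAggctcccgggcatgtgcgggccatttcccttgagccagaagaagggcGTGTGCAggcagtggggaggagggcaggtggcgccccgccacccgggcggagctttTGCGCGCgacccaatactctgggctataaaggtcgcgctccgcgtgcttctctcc
Mt1, chr19:10832976-10833225, minus strand, with the same core: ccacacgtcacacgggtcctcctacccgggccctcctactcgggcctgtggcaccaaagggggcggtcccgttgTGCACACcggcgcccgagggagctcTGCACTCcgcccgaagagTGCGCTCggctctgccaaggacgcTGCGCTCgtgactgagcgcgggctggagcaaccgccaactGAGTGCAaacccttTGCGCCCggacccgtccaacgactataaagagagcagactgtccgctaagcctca
Both strands were searched. The element of Bmal1 began 19 bases before the start, and such a match stood in 0.206% of the 33469 promoters of the table. The E-box of Tef began 198 bases and that of Nr1d1, at the nearer of the 2 starts listed for it, 191 bases before the start. Bhlhe40 and Bhlhe41 also held an E-box, so that 4 of the 13 measured clock genes with a listed promoter did, beside 5.59% of all promoters. The core of the metal response element occurred 6 times in Mt1 and 4 times in Mt2A, and 11 of the 15 zinc genes with a listed promoter held at least 1 match, beside 20.6% of all promoters. The motifs did not separate the lists. The same core stood in 5 of the 13 clock genes (Dbp, Tef, Nr1d1, Per2 and Clock), and an E-box in 3 of the 15 zinc genes (Mt2A, Slc30a3 and Slc30a5). A gene counted if any of its listed starts held a match, while the shares are per promoter. The window of Dbp held no E-box, and bases outside the windows were not searched.

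Between the pools, 558 probe sets were called, 365 higher and 193 lower with soluble zinc, which is 3.52% of those tested (2.3% higher and 1.22% lower). Without the fold limits 948 probe sets, or 5.98%, had p under 0.05. Only 4 probe sets (0.0252%) had an adjusted p under 0.05, and they belonged to 4 genes: Dbp, Nr1d1, Nr1d2 and Slc38a2. The median called change was 1.43-fold upward and 0.681-fold downward. By gene, 191 were higher (1.83%) and 112 lower (1.08%), 2.91% of 10411 in all. In no probe set were all 16 zinc arrays on one side of all 8 zinc-free arrays. The means of all 4 zinc groups stood above both zinc-free means in 1214 probe sets (7.65%) and below both in 1209 (7.62%). Of the called probe sets, 264 of the 365 higher and 130 of the 193 lower had their group means apart in this way, 1.66% and 0.819% of all probe sets. An F test among the 4 zinc groups passed an unadjusted p under 0.05 in 698 probe sets (4.4%) and an adjusted p under 0.05 in none (limma).

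Dbp, which encodes the D-box factor DBP, differed most clearly. Its signals in the Saline rats were 230.4, 200.5, 145.2 and 124, and in the MSH rats 224.1, 798, 245.4 and 154.1. In PM-HD they were 541.9, 599.8, 228 and 793.3, in PM-LD 967.1, 802, 1222 and 782.7, in PM-L 1129, 762.4, 1746 and 895, and in Zn 1239, 944.8, 769.6 and 766.5. MSH replicate 2 was the only zinc-free rat at the level of the zinc groups, and PM-HD replicate 3 was the only rat with soluble zinc at the level of the remaining zinc-free rats. The change was 1.86 ± 0.26 (SE) on the log2 scale, 3.62-fold, with an adjusted p of 0.00721 in limma and an exact two-sided permutation p of 5.44e-05 over the 735471 ways to choose 8 of the 24 arrays. Leaving out any 1 rat kept the change between 1.72 and 2.10. Each zinc group alone differed from the zinc-free mean, by 1.11 (SE 0.37) in PM-HD, 2.04 in PM-LD, 2.27 in PM-L and 2.01 in Zn. MSH exceeded Saline by 0.68 (adjusted p = 1 in limma), and the 4 zinc groups did not pass the F test.

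Nr1d1, which encodes the repressor REV-ERB alpha, followed Dbp closely from rat to rat. Its signal ran from 206.4 to 874.5 with a median of 361 in the 8 zinc-free rats and from 430.8 to 1162 with a median of 981 in the 16 rats with zinc. The change was 1.24 ± 0.20 (SE; adjusted p = 0.035 in limma, exact permutation p = 4.35e-05). Its highest zinc-free value came from MSH replicate 2 and its lowest zinc value from PM-HD replicate 3, the same rats that overlapped for Dbp, and 11 of the 16 zinc values exceeded every zinc-free value. Group means were 344 ± 114 (SD, n = 4) in Saline, 497 ± 263 in MSH, 793 ± 302 in PM-HD, 986 ± 180 in PM-LD, 1036 ± 83.4 in PM-L and 922 ± 182 in Zn.

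Nr1d2, which encodes REV-ERB beta, was measured by 3 probe sets and called higher by each. The brightest had a change of 1.04 ± 0.20 (adjusted p = 0.088 in limma), and the others had 1.16 (adjusted p = 0.0451) and 1.11 (adjusted p = 0.407). In the brightest, 15 of the 16 zinc values lay above the highest zinc-free value, 899.6. The exception was again PM-HD replicate 3, at 607.3. Tef, a PAR bZIP factor like DBP, was a dim probe set with signals of 8.7 to 99.6 without zinc and 29.8 to 277.6 with zinc, and 10 of the 16 zinc values exceeded every zinc-free one. Its change was 1.37 ± 0.26 (adjusted p = 0.088 in limma), and here MSH replicate 2 had the lowest signal of all, 8.7.

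**Figure D1:**
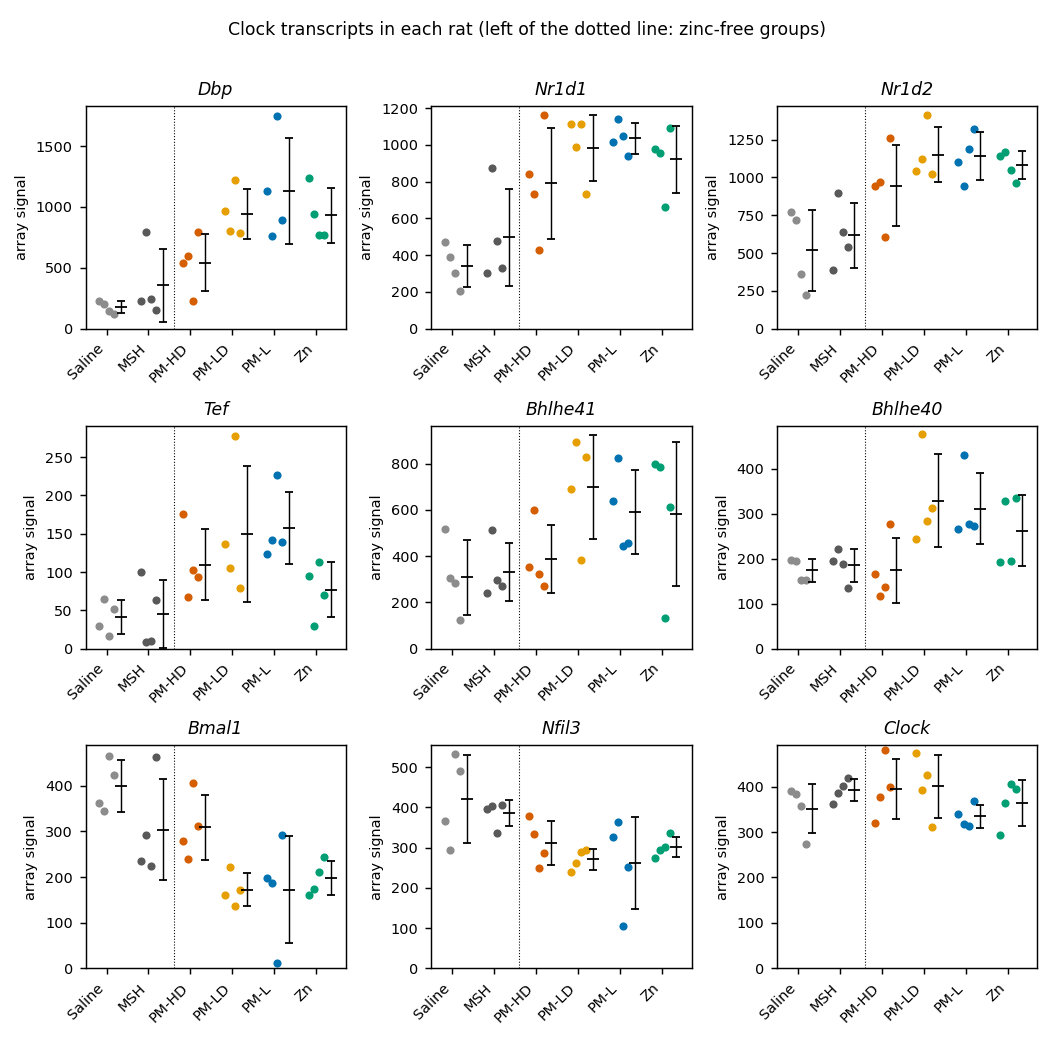
Array signal (linear, vertical axes from 0) of 9 clock genes in each of 24 rats by exposure group; each point is 1 rat, and the black dash with its bar is the group mean ± SD (n = 4). Dbp, Nr1d1, Nr1d2 and Tef are higher on average in the 4 zinc groups right of the dotted line, with 1 to 8 of the 16 zinc values at or below the highest zinc-free value, Bmal1 and Nfil3 are lower, and Clock, with a change of 0.05, is level.

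The clock repressors of the Dec family were called higher as well. Bhlhe40 (DEC1) changed by 0.53 ± 0.17 (SE), yet its PM-HD mean of 174 ± 72 (SD, n = 4) lay at the Saline mean of 174 ± 25.4, while PM-LD reached 329 ± 103, and the zinc groups passed the F test among them at an unadjusted p under 0.05. Bhlhe41 (DEC2) changed by 0.79 ± 0.31 and was no longer called without Saline replicate 4 (0.59). Hlf, the remaining PAR bZIP gene, changed by 0.34 ± 0.11. The call for Hlf rested on 4 single rats, since leaving out Saline replicate 3, MSH replicate 1, MSH replicate 2 or Zn replicate 1 lowered the change to 0.27, 0.28, 0.31 or 0.32, below the fold limit. The MSH mean of Hlf minus its Saline mean was -0.48, and against Saline alone its change was 0.10 and not called.

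Of the Period genes, which encode the repressors PER1 to PER3, only the very dim Per3 was called, with 0.48 ± 0.18. Per2 had 0.41 ± 0.24 (exact permutation p = 0.1), with the means of all zinc groups between 530 and 699 and those of the zinc-free groups at 460 and 469. Per1 had -0.27 ± 0.41 (exact permutation p = 0.557) and the largest standard error of the clock genes, with signals from 46.6 to 1121 with zinc and from 293.8 to 1204 without. Cry2, a cryptochrome repressor, had 0.26 ± 0.12 (exact permutation p = 0.0368), under the fold limit, while a dimmer probe set of it had 0.96 ± 0.20 (adjusted p = 0.125 in limma) and was called.

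Of the 3 measured genes listed in antiphase to Dbp, Bmal1 and Nfil3 were called lower and Clock was not called. Bmal1 changed by -0.75 ± 0.31 (exact permutation p = 0.0208, adjusted p = 0.749 in limma). In 10 of the 16 zinc rats it lay below the lowest zinc-free value of 224.7. Its group means were 399 ± 56.4 (SD, n = 4) in Saline, 304 ± 110 in MSH, 309 ± 71.3 in PM-HD, 173 ± 35.3 in PM-LD, 173 ± 117 in PM-L and 197 ± 37.4 in Zn, so that PM-HD and MSH did not differ beyond their spread. Without MSH replicate 4 Bmal1 was no longer called (-0.64). The call was also lost with a pseudocount of 1, without the PM-LD group and without the Saline group. Nfil3, a repressor that competes with DBP at D-boxes, changed by -0.46 ± 0.17, and all 4 zinc means, from 262 to 312, lay under the zinc-free means of 421 and 386. It was not called without Saline replicate 3 (-0.40) or without PM-L replicate 3 (-0.36). Clock itself had 0.05 ± 0.10 (exact permutation p = 0.615).

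Counted as a list, 8 of the 11 measured clock genes that run in phase with Dbp were higher and none was lower, with a median change of 0.53, and 2 of the 3 that run in antiphase were lower, with a median of -0.46. Over all 10411 genes 2.91% were called and the median change was -0.01. The number of called genes in the first list ran from 6 to 9 over the alternative settings and single rats left out, and was 6 without the 6 arrays of high atrial signal. The list medians were 0.47 in PM-HD, 0.85 in PM-LD, 0.73 in PM-L and 0.59 in Zn. These genes are known to move together over the day, so they are not separate measurements of an effect. No time of day is given for the necropsies, and its part in these changes was not tested.

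The array numbers in the sample titles run group by group without a break, from Saline over MSH and the high particle dose to PM-LD, the leachate and last zinc sulfate, with Saline replicate 1 as the only array numbered later. The labels do not say what these numbers record.

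The comparison holds 2 contrasts that share no arrays. In the first no rat had received solids (PM-L and Zn against Saline), and in the second every rat had (PM-HD and PM-LD against MSH). The second sets oil combustion particles with soluble nickel against volcanic ash. Soluble zinc, nickel and particle material therefore cannot be told apart in it. The first called 586 probe sets, 3.69% of those tested, and the second 589, or 3.71%. In the first 1 probe set (0.0063%), that of Dbp, had an adjusted p under 0.05 in limma and 710 (4.47%) an unadjusted one. In the second none had an adjusted p under 0.05, the lowest being 0.94, and 719 (4.53%) had an unadjusted one. A total of 42 probe sets were called in the same direction in both, 7.17% of the first list and 7.13% of the second, and 13 in opposite directions. Of those higher without solids 9.01% were higher with solids, where 2.15% of all probe sets were, and of those lower without solids 4.55% were lower with solids, where 1.56% of all were. Across all probe sets the 2 changes had a Pearson r of 0.154, a description across features that are not independent.

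The 42 probe sets included the representatives of 23 genes. The 10 bright ones were Acacb, Dbp, Nr1d1, Nr1d2, Rhobtb1 and Tmtc1, all higher, and Daam1, Mycbp2, S100a3 and Slc38a2, all lower. Tef, dimmer than the median probe set, was higher in both, by 1.21 without solids and 1.53 with solids. For Dbp the change was 2.48 ± 0.37 (SE) without solids and 1.23 ± 0.37 with solids, and their difference of -1.25 passed the thresholds (adjusted p = 1 in limma). That difference was -0.76 without MSH replicate 2 and -1.04 without Saline replicate 4, and did not pass in either case. For the difference of the 2 contrasts 468 probe sets, 2.95%, passed the thresholds and none had an adjusted p under 0.05 (480, or 3.03%, had an unadjusted p under 0.05, limma).

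**Figure D2:**
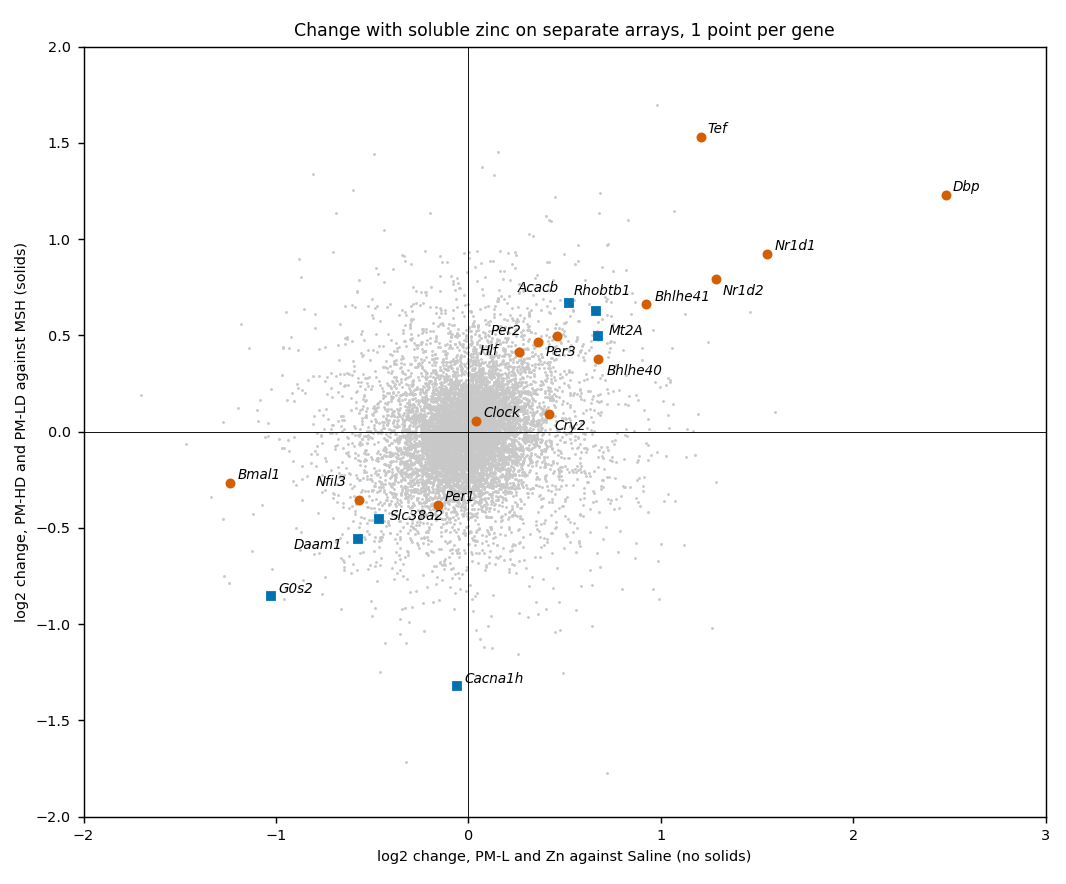
Change (log2) in rats given zinc with solids against MSH (vertical) and in rats given zinc without solids against Saline (horizontal), 1 point per gene for 10411 genes; orange circles are the 14 measured clock genes and blue squares 7 further genes described in the text. Dbp, Nr1d1, Nr1d2 and Tef lie far from the cloud in the upper right, at 2.48, 1.55, 1.29 and 1.21 on the horizontal axis, and Cacna1h differs on the vertical axis alone.

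Slc38a2, which encodes the amino acid transporter SNAT2, had the clearest decrease. Its signal lay between 2017 and 2550 with a median of 2135 in the 8 zinc-free rats and between 1338 and 2151 with a median of 1544 in the 16 rats with zinc. Only PM-HD replicate 3, at 2151, overlapped with the zinc-free rats. The change was -0.46 ± 0.08 (SE; adjusted p = 0.0451 in limma, exact permutation p = 4.89e-05), nearly equal in the 2 contrasts, -0.47 without solids and -0.45 with solids. The zinc groups passed the F test among them at an unadjusted p under 0.05, and PM-HD, at 1949 ± 149 (SD, n = 4), stood closer to Saline, at 2140 ± 114, than did PM-LD at 1449 ± 98, PM-L at 1625 ± 257 and Zn at 1501 ± 109. The change is close to the lower limit, and the gene fell short of that limit without the PM-LD group (-0.40), without the MSH group (-0.41) and after median centering (-0.39), each time with an unadjusted p under 0.05.

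Daam1, a formin of Wnt and actin signalling, changed by -0.56 ± 0.11 (adjusted p = 0.0938 in limma), and 11 of the 16 zinc values lay below every zinc-free value. A second, also bright probe set of Daam1 had -0.15 ± 0.14 and was not called, so the probe sets disagree. The zinc groups passed the F test here as well (unadjusted p under 0.05), with PM-HD at 1160 ± 202 (SD, n = 4) near Saline at 1212 ± 213.

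Over the 24 arrays the genes with the pattern most like that of Dbp, among 6012 bright genes, were Nr1d1 (Pearson r = 0.943), Nr1d2 (0.898), Tcap (0.886), Pik3ip1 (0.743) and Smtn (0.704). Most opposite were Slc38a2 (-0.777), Daam1 (-0.756), Asb2 (-0.723), Gja1 (-0.694) and Inpp5j (-0.63). The points share the 6 groups, so the coefficients describe the pattern and carry no test. After subtraction of the group means the coefficient was 0.838 for Nr1d1, 0.824 for Tcap and 0.746 for Nr1d2, and -0.335 for Slc38a2. Tcap, which encodes the titin cap protein telethonin, changed by 0.37 ± 0.10 and was called higher, from 13280 ± 2380 (SD, n = 8) to 17560 ± 2280 (SD, n = 16). Asb2, a muscle ubiquitin ligase subunit, had -0.35 ± 0.09 and Gja1, which encodes connexin 43, had -0.21 ± 0.07, both short of the fold limit. A dimmer Gja1 probe set had 0.80 ± 0.36 and was called higher, so the probe sets of Gja1 disagree.

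The zinc-handling genes showed little in common. Of the 18 measured, 2 were higher, none was lower and the median change was 0.00, beside 2.91% called among all genes. Mt2A, a metallothionein, changed by 0.58 ± 0.24 (exact permutation p = 0.0184, adjusted p = 0.749 in limma). Its values ran from 174.8 to 928.9 with a median of 675 without zinc and from 529 to 1255 with a median of 830 with zinc, and 6 zinc values exceeded every zinc-free one. Group means were 626 ± 210 (SD, n = 4) in Saline, 642 ± 328 in MSH, 655 ± 145 in PM-HD, 880 ± 165 in PM-LD, 935 ± 96.6 in PM-L and 1025 ± 294 in Zn, and PM-HD did not stand apart from the zinc-free groups. The call was lost without Saline replicate 3 (0.45) or MSH replicate 1 (0.31) and without the 6 arrays of high atrial signal (0.29). The brightest Mt1 probe set was near the floor of the array, at 25.2 ± 20.2 (SD, n = 8) without zinc and 44.2 ± 37.8 (SD, n = 16) with zinc, and its change of 0.46 ± 0.33 was not called (exact permutation p = 0.195).

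Slc30a5, which loads zinc into the secretory pathway, was the other higher gene, with 0.45 ± 0.19 (exact permutation p = 0.0135), from 255 ± 85.3 (SD, n = 8) to 323 ± 49.3 (SD, n = 16). Saline replicate 4 (0.22 without it) and MSH replicate 1 (0.38 without it) each decided that call. Slc30a2, the vesicular transporter ZnT2, had -0.35 ± 0.13 (exact permutation p = 0.0269), short of the fold limit, with PM-HD at the Saline level and lower means in the other 3 zinc groups. The 4 zinc groups together passed the F test among them at an unadjusted p under 0.05. Mtf1, the zinc sensor, had -0.25 ± 0.11 and Slc30a3 had -0.28 ± 0.12. The exporter Slc30a1, a classical MTF1 target, had 0.17 ± 0.11 and was not called.

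**Figure D3:**
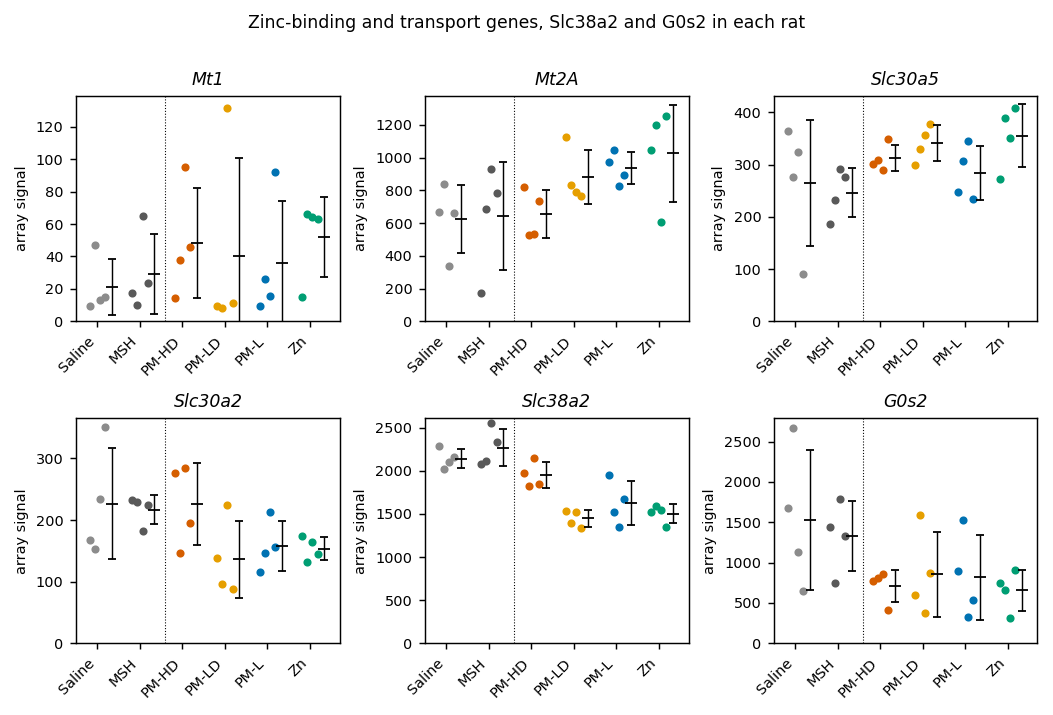
Array signal (linear, vertical axes from 0) of 2 metallothioneins, 2 zinc transporters, Slc38a2 and G0s2 in each of 24 rats by exposure group; points are rats and the black dash with its bar is the group mean ± SD (n = 4). Mt2A averages 655 in PM-HD and 1025 in Zn, Mt1 stays near the floor in most rats, and Slc38a2 is lower in all 4 zinc groups.

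Other genes were higher with their group means apart from both zinc-free groups. They are the largest such changes among bright genes: Kif13a (a kinesin motor) with 0.87 ± 0.28, Ppm1a (a protein phosphatase of the 2C type) with 0.85 ± 0.28, Tspan4 (a tetraspanin) with 0.72 ± 0.29, Gadd45b (a stress-inducible growth arrest gene) with 0.71 ± 0.27, Scyl2 with 0.70 ± 0.27, Dtna (dystrobrevin alpha) with 0.70 ± 0.31, Slc3a1 (a subunit of the cystine transporter) with 0.67 ± 0.31 and Rhobtb1 with 0.64 ± 0.16. A second probe set of Kif13a, just under the median brightness, had 0.02 ± 0.17 and was not called, and the brighter one was not called without the 9 arrays of Gapdh 3′ to 5′ ratio above 3 (0.35). Without those arrays Tspan4 (0.25) and Gadd45b (0.56) were not called either, and Tspan4 had its highest signal in 5 of the 6 groups in an array with such a ratio. Calls were also lost for Tspan4 without MSH replicate 1 (0.61) or the Saline group (0.56), for Scyl2 without Saline replicate 4 (0.43) or MSH replicate 2 (0.45), and for Gadd45b without Saline replicate 1 (0.42) or MSH replicate 1 (0.51), while Dtna and Slc3a1 lost theirs without any of 13 and 12 of the 24 rats, with values from 0.59 to 0.84 and from 0.40 to 0.81. Ppm1a was not called without the MSH group. Its PM-HD mean of 372 ± 167 (SD, n = 4) lay at the Saline mean of 374 ± 167. The highest signals of Ppm1a and Slc3a1 came from PM-LD replicates 2 and 4 and PM-L replicate 2. Those arrays had the lowest Gapdh ratios, 1.22, 1.22 and 1.11. Dtna was highest in PM-L replicate 2 (1682) and PM-LD replicate 2 (1600). The part of RNA integrity was not tested beyond the fits given. Of the 8 genes Rhobtb1 had the smallest error. It ran from 323.3 to 597.7 without zinc and from 448.2 to 973.6 with zinc, and its changes were 0.66 without solids and 0.63 with solids. Acacb, the mitochondrial acetyl-CoA carboxylase that restrains fatty acid import, was the only called gene of 39 in fatty acid metabolism (2.56%, beside 2.91% of all genes). It changed by 0.59 ± 0.14 (exact permutation p = 0.0021), but its PM-HD mean of 213 ± 52 (SD, n = 4) lay at the Saline mean of 217 ± 33.9, and the zinc groups passed the F test among them at an unadjusted p under 0.05. Mdm2, the p53 ubiquitin ligase, had 0.47 ± 0.14, and a second, dim probe set of it had -0.08 ± 0.28.

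Among the bright genes that were lower, G0s2, an inhibitor of the triglyceride lipase ATGL, had the largest change, -0.94 ± 0.31 (exact permutation p = 0.00549). Its signal ran from 652.9 to 2673 without zinc and from 313.5 to 1589 with zinc, so the pools overlapped widely while the means of all 4 zinc groups, from 656 to 858, lay below 1328 in MSH and 1533 in Saline. Acta2, the smooth muscle actin, had -0.49 ± 0.16, Klf4 (a zinc finger factor of growth arrest) -0.51 ± 0.17, S100a3 -0.52 ± 0.18, Btg3 (an antiproliferative gene) -0.47 ± 0.12, Mon1a -0.66 ± 0.26, Efs -0.50 ± 0.20, Mbtd1 -0.46 ± 0.16 and Zrsr2-ps1 -0.50 ± 0.24. These 9 genes were picked by a rule that requires all zinc means below both zinc-free means, so that property is no result. Their adjusted p was 0.392 or more. Klf4 had -0.22 in PM-HD, -0.53 in PM-LD, -0.38 in PM-L and -0.91 in Zn, and was not called without the Zn group (-0.38). Leaving out 1 rat ended the call of Mon1a (Saline replicate 4, -0.53), Efs (PM-L replicate 1, -0.40), Btg3 (Saline replicate 1, -0.41) and Mbtd1 (PM-LD replicate 2, -0.38), and for Zrsr2-ps1 any of 16 of the 24 rats did, with values from -0.72 to -0.39.

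Egr1, an immediate early transcription factor, had -0.70 ± 0.27 (exact permutation p = 0.0158). A single Saline rat at 1814, against 484 to 616 in the other 3, decided its call, since the change was -0.49 without that rat, Saline replicate 2. Atf3 of the same list was dim, with -0.92 ± 0.41, and 11 of the 24 rats each ended its call when left out (-1.22 to -0.73). In all, 2 of 23 immediate early genes were lower (8.7%, beside 1.08% of all genes) and none was higher, the median change was -0.15, and 4 of the 23 changes were above 0, beside 4865 of 10411 genes. Jun had -0.41 ± 0.11 (adjusted p = 0.476 in limma) and Nr4a1 had -0.33 ± 0.15 (adjusted p = 0.786), both short of the lower fold limit. With limits symmetric on the log scale 4 of the 23 were lower. At those limits 281 of all 15866 probe sets were lower, beside 193 at the study's limits.

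**Figure D4:**
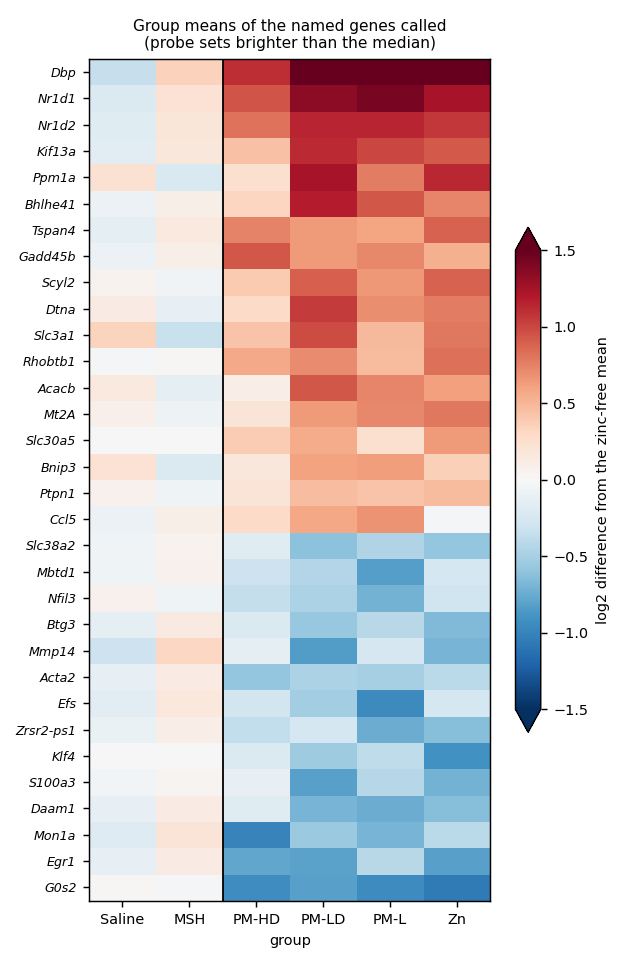
Mean of each exposure group minus the mean of the Saline and MSH group means (log2, color scale cut at 1.5 in either direction) for the 32 named genes that were called and brighter than the median probe set. In PM-HD the changes of Acacb, Mt2A, Daam1 and Slc38a2 are paler than in the other 3 zinc groups, and Dbp exceeds the scale in 3 of the 4.

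Heat shock genes included none called of 17, beside 2.91% of all genes. Dnaja1 (-0.39 ± 0.11), Hsp90ab1 (-0.40 ± 0.17), Dnajb1 (-0.25 ± 0.11) and Hspa5 (-0.25 ± 0.10) had an unadjusted p under 0.05 but were short of the fold limit. Of the 17 changes 3 were above 0, beside 4865 of 10411 genes. The inducible Hspa1a had -0.07 ± 0.18 and Hsp90b1 had -0.01 ± 0.12. In energy metabolism no gene was called of 19 in the TCA cycle, where cytosolic aconitase (Aco1) had 0.22 ± 0.10 (exact permutation p = 0.0279). None was called of 35 in the electron transport chain, where 8 of the changes were above 0, beside 4865 of all 10411. Cd36, the fatty acid transporter, had 0.32 ± 0.14 (adjusted p = 0.766 in limma) and just missed the upper limit, and the fatty acid binding protein Fabp3 had 0.03 ± 0.13. None of 27 oxidative stress and NRF2 target genes was called. With 2.91% of all genes called, few or no calls are the background in lists of these sizes.

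In the ion channel and calcium list 1 of 35 genes was called (2.86%, beside 2.91% of all genes). It was Cacna1h, a T-type calcium channel that was dim at 79.6 ± 50.6 (SD, n = 8) without zinc and 37.7 ± 24 (SD, n = 16) with zinc. Its change of -0.69 ± 0.30 was -1.32 ± 0.42 with solids and -0.06 without solids, and MSH exceeded Saline by 1.19 (adjusted p = 1 in limma). Over all arrays the exact permutation p was 0.0506. The difference between the 2 contrasts, -1.26, passed the thresholds (adjusted p = 1 in limma) and was lost when any 1 of 15 of the 24 rats was left out. The call itself was lost without Saline replicate 1 (-0.50), Saline replicate 2 (-0.62), MSH replicate 1 (-0.64) or MSH replicate 2 (-0.66), and the change was -0.10 against Saline alone. The cell cycle list had Gadd45b and Mdm2 higher and Klf4 lower of 29 (10.3%, beside 2.91% of all genes). The p53 target Cdkn1a (p21) had -0.32 ± 0.14 (exact permutation p = 0.0388), and a dimmer probe set, which was called lower, had -0.92 ± 0.44, while Ccnd1 (cyclin D1) had -0.14 ± 0.13.

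The list of 36 genes of inflammation and the acute phase had 3 that were higher, Spp1 (osteopontin, 0.65 ± 0.27), Il6r (0.74 ± 0.33) and the chemokine Ccl5 (0.38 ± 0.16). Ccl5 did not differ in Zn, at 300 ± 85.5 (SD, n = 4) beside 298 ± 60.8 in Saline. The change of Spp1 was 0.09 in PM-L and 1.11 in Zn. Ciita, the master regulator of MHC class II genes, had 0.43 ± 0.16 as the 1 called gene of 17 in antigen presentation. Bnip3 (0.44 ± 0.20) was the 1 of 23 hypoxia-induced genes and Ptpn1 (0.39 ± 0.15) the 1 of 26 protein phosphatases, where Ptprm had 0.02 ± 0.10. Mmp14, a membrane-bound matrix metalloproteinase, was lower (-0.48 ± 0.20), the 1 of 34 matrix genes. Its means of 740 in PM-HD and 652 in PM-L lay above the Saline mean of 612, and MSH exceeded Saline by 0.61. Against Saline alone it was not called. None of 29 kinases, 30 genes of the ubiquitin and proteasome list or 16 of the cardiac stress program was called, and of 16 glucocorticoid-induced genes only Mt2A was. Most of these calls rested on single rats. The change was 0.39 for Spp1 without MSH replicate 1, 0.49 without Saline replicate 1 and 0.59 without Saline replicate 2, and 0.31 for Ccl5 without MSH replicate 4, 0.35 without Saline replicate 4 and 0.36 without Saline replicate 3. It was 0.27 for Ciita without MSH replicate 1, 0.31 for Ptpn1 without Saline replicate 4 and -0.41 for Mmp14 without Saline replicate 3, none of them called. Il6r (0.48 to 0.96) and Bnip3 (0.37 to 0.53) lost the call without any of 6 and 9 of the 24 rats. The highest Bnip3 signals, 3268, 3053 and 2416, came from PM-L replicate 2 and PM-LD replicates 2 and 4. Its PM-HD mean was 1357, beside 1378 in Saline. In these lists the share called ran from 0 to 8.33%, beside 2.91% of all genes.

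**Figure D5:**
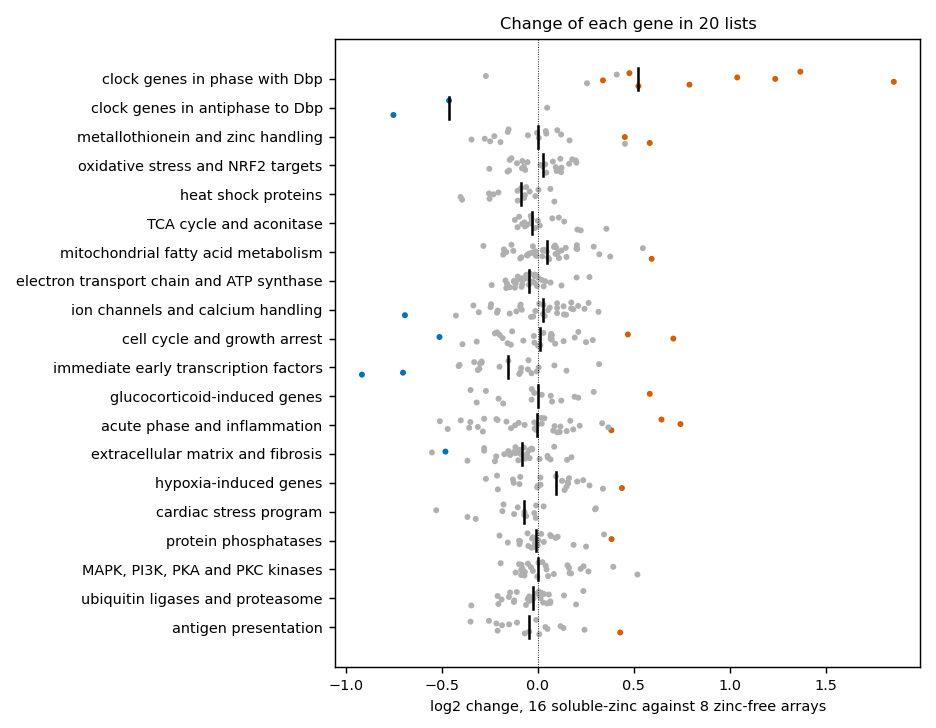
Change (log2, soluble-zinc mean minus zinc-free mean) of each measured gene in 20 gene lists; orange points were called higher, blue points lower, grey points were not called, and the black bar is the list's median. The clock genes in phase with Dbp have a median of 0.53 and spread to 1.86, and the medians of all lists outside the clock lie between -0.15 and 0.10.

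Each exposure group was left out in turn to see whether it carried the calls. Without PM-HD 473 of the 558 probe sets (84.8%) were still called in the same direction, without PM-LD 389, without PM-L 400 and without Zn 384. The zinc-free groups weighed more: 315 of 558 (56.5%) held against MSH alone and 218 (39.1%) against Saline alone. Of the 43 named genes that were called, 22 held against Saline alone and 34 against MSH alone, while 41 held without PM-HD, 32 without PM-LD, 32 without PM-L and 30 without Zn. Dbp, Nr1d1, Nr1d2, Tef, Bhlhe40, Rhobtb1, G0s2 and Acacb were called in every alternative setting run on them and without any single rat.

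The hearts carried ventricular markers at comparable summed levels, 212300 to 325300 with zinc and 171600 to 283500 without, and none of the 11 was called. Atrial markers summed to 4612 to 45740 with zinc and 4256 to 26980 without, with none of 9 called, and their mean was high in 4 zinc arrays and 2 zinc-free arrays. The ratio of 3′ to 5′ Gapdh signal, a measure of RNA integrity, was above 3 in 6 zinc arrays and 3 zinc-free arrays and ran from 1.11 to 5.62. The pools were less alike below that limit. The median ratio was 1.74 with zinc and 2.22 without, and the lowest was 1.11 with zinc and 1.35 without. Among the smooth muscle markers Acta2 alone was lower of 8, and among the lymphocyte markers Cd3e alone of 8. Among the adipocyte markers Ucp1 alone was lower of 6, beside 1.08% of all genes. The lymphocyte list was matched to Ms4a2 in place of Ms4a1. The call of Acta2 was lost without the arrays of high atrial mean and without the MSH group. None of the endothelial, fibroblast, macrophage, neutrophil, mast cell, erythroid, epicardial or nerve markers was called. The part of tissue makeup and RNA integrity in single-gene calls was not tested beyond the fits given. In whole ventricle, fewer cells of a type and less RNA per cell cannot be told apart.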

How the data were processed

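RNA from 24 hearts was hybridized to Affymetrix arrays (Rat 230A), each rat to an array of its own. The authors deposited MAS5 signal intensities, linear values scaled by array (trimmed means of 500.1 to 500.2, medians of 206.1 to 278.3, and 4.7 to 10.6% of probe sets under 16), and these intensities were used here; the robust multiarray averages named in the study's methods were not used here. The number of arrays limits the precision. Control probe sets (57) were left out. Of 15866 probe sets, 12783 carried 1 gene symbol of the platform annotation, 312 several and 2771 none, and 12748 matched RefSeq by gene ID. Signals plus a pseudocount of 16 were log2 transformed, quantile normalized and fitted in limma 3.58.1 (R 4.3.3) with 1 mean per exposure group, and p-values were adjusted over all probe sets. The fit was tested on simulated data. Named genes were, by rule, the 12 largest changes per direction among bright genes called with group means apart, up to 4 called members per gene list, all clock genes, zinc-related genes of the study's text and genes with adjusted p under 0.05. Members and gene lists were chosen with earlier results of these data known. Alternatives changed pseudocount, normalization, filter, fit, fold limits, groups and arrays. No 2 arrays correlated above 0.968.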

Additional observations from a re-analysis of the deposited data

Results flagged for a closer look

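In 31 of 354 sets of 4 rats, 1 array lay farther from the other 3 than Dixon's critical value allows. Chance gives about 1 in 20 for normally distributed values. Most values here were linear signals, so the count cannot be read as an excess over chance. Zn replicate 3 had a Gapdh 3′ to 5′ ratio of 5.575 (others up to 1.518), a median signal of 256.8 (others up to 215.9) and the highest Zn signal of Daam1 (1124), Klf4 (1711), Acta2 (1351) and Mdm2 (357.5). Zn replicate 2 had the highest atrial mean, 11.66 on the log2 scale against 9.042 or less, and the lowest Ptpn1 (210.9) and Per3 (21.1) of its group, and Zn replicate 1 the lowest Mt1 (15.1, others 63.1 to 66.2).

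Among the zinc-free rats, MSH replicate 2 had a Dbp signal of 798 (others 154.1 to 245.4), MSH replicate 3 the lowest Nfil3 (337.4) and MSH replicate 4 the highest Daam1 (1617) and Ptpn1 (232.7). Saline replicate 1 had the lowest Zrsr2-ps1 (174.5, others from 685.7) and the highest Ccl5 (388.1), Saline replicate 2 the highest Egr1 (1814) and Mt1 (47.3), and Saline replicate 4 the highest Tspan4 (465.5) and lowest Scyl2 (59.1).

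In PM-HD, replicate 2 was highest for Ppm1a (619.9) and Cacna1h (88.2), replicate 3 for Mbtd1 (611.6) and replicate 4 for Per2 (1243), and replicate 4 was lowest for Fabp3 (15580, others from 27490). In PM-LD, replicate 2 was lowest for Mbtd1 (187.6) and replicate 3 highest for Mt1 (131.5, others up to 11.4). In PM-L, replicate 2 was highest for Ppm1a (1090) and Bhlhe40 (429.5) and lowest for S100a3 (169.6), and replicate 3 was highest for Btg3 (661.3).

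Among the named genes, the contrasts with and without solids differed for Dbp, by -1.25, and for Cacna1h, by -1.26. Both differences had an unadjusted p under 0.05 and an adjusted p of 1 in limma.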

How the results depend on the processing

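Of the 43 named genes called, 8 kept their call in all settings run and without any 1 rat. The 4 probe sets with an adjusted p under 0.05 became 1 with a pseudocount of 1, with a replicate block or with the atrial mean as covariate, 2 with median centering, 2 with 1 mean per pool, 2 with zinc and solids as additive terms, 12 with the Gapdh ratio as covariate, and 0 without the PM-LD, PM-L, Zn or Saline group, without the 9 arrays of Gapdh ratio above 3 and without the 6 of atrial mean above 11. The 558 called probe sets became 337 (76% higher) with a pseudocount of 64, 948 (54.1% higher) without fold limits, 317 among probe sets with a mean signal of 100 or more, and 1258 without the arrays of high Gapdh ratio. With that signal filter, zinc without solids gave 322, zinc with solids 361, the difference of the 2 contrasts 238 and the F test among zinc groups 444. Zinc with solids gave 912 without PM-HD and 1234 without the arrays of high Gapdh ratio, and the F test gave 1069 with the Gapdh covariate. Limits symmetric on the log scale put 56.5% of calls higher, against 65.4%. The causes were not tested, apart from fewer probe sets or arrays where a setting removes them.

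Leaving out 1 rat gave 496 (without MSH replicate 1) to 712 (without Saline replicate 1) called probe sets, 1 to 6 with an adjusted p under 0.05, 508 to 861 without solids, 459 to 769 with solids, 428 to 546 for the difference of the 2 contrasts and 569 to 924 for the F test. With the replicate number as a block 615 probe sets were called and 1 had an adjusted p under 0.05. Deviations of arrays with the same number had a median correlation of 0.06 (-0.26 to 0.52) and 12 of 24 arrays correlated best with their own number, so the numbers were not taken to pair the rats.

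Of the 558 called probe sets, 553 kept their sign without the Saline group and 555 without the MSH group. Among the named genes, only those that were not called changed sign. Hsp90b1 had 0.067 with median centering, 0.036 without PM-LD, 0.001 without Zn, 0.007 without MSH, 0.01 with the Gapdh covariate, 0.004 without the arrays of high atrial mean and -0.059 to 0.026 without 1 rat. Fabp3 had -0.008 without PM-LD, -0.016 without MSH, -0.01 with the Gapdh covariate, -0.013 without the arrays of high atrial mean and -0.005 to 0.079 without 1 rat. Ptprm had -0.035 without PM-L, -0.126 without Saline and -0.057 to 0.073 without 1 rat. Clock had -0.02 without Saline, -0.045 without the arrays of high Gapdh ratio and -0.029 to 0.085 without 1 rat. Without those arrays Per1 had 0.013 and Mt1 -0.041, and Ccnd1 had 0.049 without MSH. Signals near the floor of the array limit Mt1, Per3, Tef, Atf3 and Cacna1h.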

Other observations

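Several genes outside the lists stood among the 30 lowest p-values of the comparison. Gab2, a docking protein of receptor signalling that was dim here, had a change of 1.34 ± 0.27 (adjusted p = 0.11 in limma), and the Wnt ligand gene Wnt6, also dim, had 0.83 ± 0.22. Lifr, the receptor of leukemia inhibitory factor, had 0.71 ± 0.18, with 0.50 without solids and 0.92 with solids. Mtmr1, a phosphoinositide phosphatase, had 0.44 ± 0.09 from a mean of 127 ± 18.9 (SD, n = 8) to 170 ± 25.2 (SD, n = 16), and was of like size in the 2 contrasts, at 0.42 and 0.46. Among the bright genes, Tmtc1 rose from 948 ± 110 (SD, n = 8) to 1278 ± 234 (SD, n = 16), Fbxo8 by 0.47 ± 0.12 and Pik3ip1, an inhibitor of PI3K, by 0.35 ± 0.09, all at the study's thresholds. Trim8 had -0.38 ± 0.08 from 479 ± 60.5 to 359 ± 59.4, short of the lower fold limit, and Mycbp2 fell by 0.54 on the log2 scale. None of these had an adjusted p under 0.1.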
